A study of Drosophila melanogaster with 4 samples.

Results

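*CG8997*, *CG7916* and *CG7953* are 3 genes that follow each other without interruption on arm 2L of *Drosophila melanogaster*. They were selected on their log2 ratios in this very comparison, all 3 being higher in larvae mutant for *ash2* than in wild-type larvae, so their rise is a description and carries no test. They are 3 of 1659 genes that had a value in both mutant RNA extractions. The study hybridised RNA of whole w1118;+;ash2I1 larvae to 4 two-colour oligonucleotide arrays, each time against 1 pool of RNA from w1118;+;+ larvae, the isogenic wild-type line. Both groups were wandering larvae early in the third instar, raised on the same medium, and the mutant RNA came from 2 extractions with 2 arrays each. The mutant stock was kept over the balancer TM6c, larvae without the Tubby marker of that balancer were taken, and its chromosomes X, Y and 2 had been exchanged for those of the isogenic line. The 3 genes therefore lie on a chromosome that the mutant and the wild-type larvae had from the same source, whereas chromosome 3, with the *ash2* mutation, had not been exchanged.

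The ASH2 protein belongs to the trithorax group, whose members keep genes active through chromatin, and takes part in the methylation of histones. Genes that lie side by side in the fly genome can share their chromatin, and the study asked whether the genes that change in mutants of this group lie in clusters. The symbols *CG8997*, *CG7916* and *CG7953* are numbers of the genome annotation and carry no name that tells a function. Immediately outside them lie *CG33306*, before *CG8997*, and *CG7968*, after *CG7953*, and next to *CG33306* lies *CG33307*. In the Release 6 annotation all 6 of these genes lie within the span of *CenG1A*, which encodes a centaurin, a regulator of Arf GTPases.

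The 4 arrays held between 1108 and 3513 values out of 16416 probes, and their medians lay between -0.02 and 0.04. Each value is a log2 ratio whose likely direction is mutant over wild type, because Cy5 marked the mutant RNA on all 4 arrays and Cy5 is by convention divided by Cy3. No dye swap was made, so an effect of the dye and one of the genotype cannot be told apart. Arrays that shared an extraction were averaged first, giving n = 2 mutant extractions. Only 1 wild-type pool was made, so variation between wild-type larvae does not enter any error given here. The labels do not say whether the extractions came from separate cultures, so the spread between them may be partly technical. In bulk RNA of whole larvae, more cells that express a gene and more RNA per cell cannot be told apart. For whole larvae no single marker defines the sample.

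*CG7916*, the middle gene, had the highest ratios of the 3. Its log2 ratio was 2.13 on array 1, 1.43 on array 2 and 1.56 on array 3, and its spot gave no value on array 4. The mean was 1.67 ± 0.16 (SD, n = 2 extractions), which is 3.18-fold over the wild-type pool. *CG8997*, the first gene, had log2 ratios of 1.70 and 1.13 on the arrays of extraction 1 and of 1.15 and 1.35 on those of extraction 2. Every one of these values exceeded 1, the log2 equivalent of a 2-fold change, and the mean was 1.33 ± 0.12 (SD, n = 2), or 2.52-fold. *CG7953*, the last gene, had 1.54 and 0.98 on arrays 1 and 2 and 0.80 and 1.12 on arrays 3 and 4. Its values on arrays 2 and 3 were thus under a 2-fold change. Its mean was 1.11 ± 0.21 (SD, n = 2), or 2.16-fold. Each gene was read by 1 probe, so no gene offers a second probe as a check, and whether a probe also bound RNA of a neighbouring gene was not tested.

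**Figure D1:**
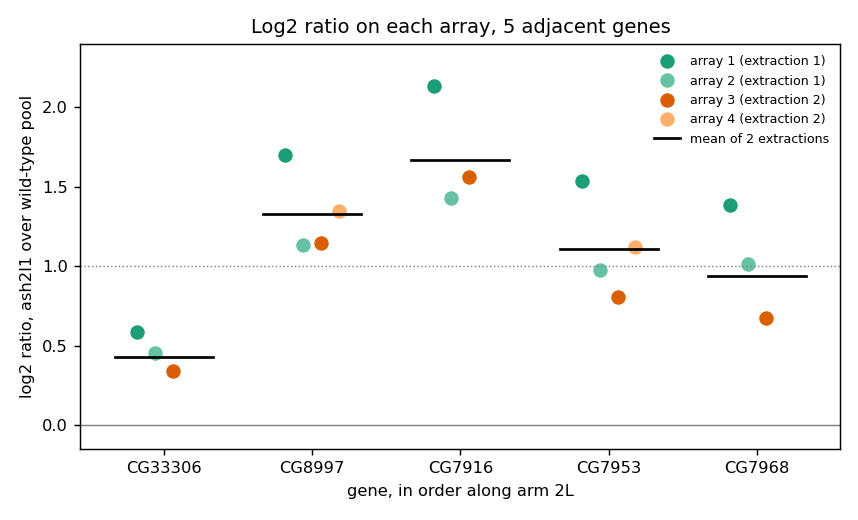
Log2 ratio of mutant over wild-type pool for 5 adjacent genes, in their order along arm 2L. Each point is 1 array, bars are means of the 2 extractions, the dotted line is a 2-fold change, and every value of the 3 middle genes lies between 0.80 and 2.13, with array 1 the highest for all 5.

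All 3 genes were among the 63 genes called higher. A call here means a change of 2-fold or more whose adjusted p in limma, a moderated linear model fitted over all genes, was below 0.05. Of all tested genes 3.8% were called higher, 2.83% lower and 6.63% in either direction, and since the genes were selected for their rise nothing is read from this count. Ranked from the highest ratio downward, *CG7916* stood 24th, *CG8997* 51st and *CG7953* 69th of 1659, so none was at the top of the range. The median log2 ratio of the 63 was 1.52, which exceeded *CG8997* and *CG7953* but not *CG7916*, and 9 of the 63 lay below *CG7953*. On array 4, which held values for 358 of the tested genes, *CG8997* stood 6th and *CG7953* 10th. On arrays 1, 2 and 3 *CG7916* stood 35th, 25th and 29th.

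**Figure D2:**
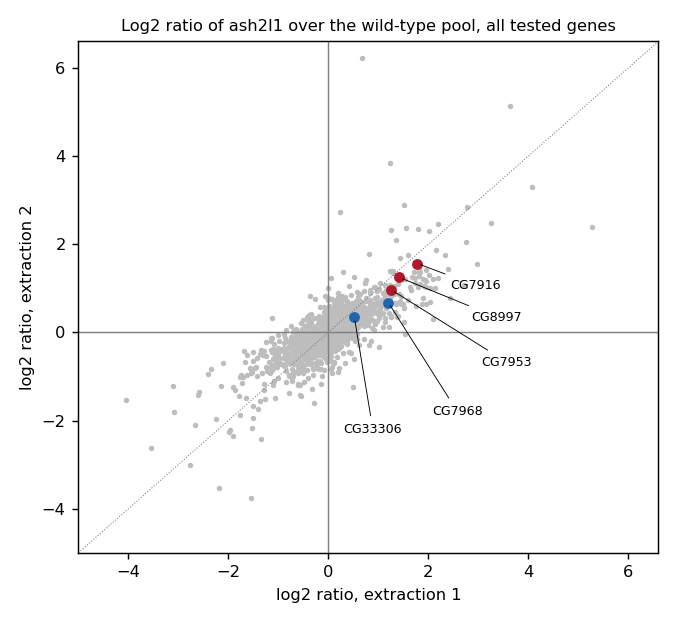
Log2 ratio in extraction 2 against that in extraction 1 for the 1659 tested genes, with *CG8997*, *CG7916* and *CG7953* in red and the genes next to them in blue. The red points lie just under the dotted line of equal values, between 0.96 and 1.78 on either axis.

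Because the 3 genes were picked for their rise, their calls with an array left out are descriptions and no test. Those of *CG8997* and *CG7916* stayed without array 1 or array 2, and that of *CG7953* did not. Without array 1 the log2 ratio of *CG7953* was 0.97, under a 2-fold change, and without array 2 it was 1.25 and missed the threshold of adjusted p. Without array 3 no gene of 358, *CG8997* and *CG7953* included, was called in limma, although 67 had an unadjusted p under 0.05. *CG7916* has no value in extraction 2 without array 3.

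Between themselves the 3 genes kept one order. *CG7916* exceeded *CG8997* by 0.43, 0.30 and 0.42 on arrays 1, 2 and 3, differences of the log2 ratio given here as sizes. *CG8997* exceeded *CG7953* by 0.16, 0.15, 0.34 and 0.23 on arrays 1 to 4. The order *CG7916*, *CG8997*, *CG7953* therefore held on every array that measured the genes compared. On arrays 1, 2 and 3 *CG7916* exceeded *CG7953* by 0.60, 0.45 and 0.76. Averaged per extraction, the difference between *CG7916* and *CG7953* was 0.56 ± 0.05 (SD, n = 2 extractions) and that between *CG8997* and *CG7953* was 0.22 ± 0.09. In extraction 2 *CG7916* has array 3 alone, whereas *CG7953* has arrays 3 and 4, so the SD of 0.05 rests on unlike arrays. With 2 extractions no exact test can reach 0.05, and none was run. These differences are between ratios and say nothing of the levels of the 3 RNAs, which the table does not hold.

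For these genes the 2 extractions lay closer together than was usual among genes called higher, but about as far apart as for all tested genes. Extraction 1 was higher than extraction 2 by 0.17 for *CG8997*, 0.22 for *CG7916* and 0.29 for *CG7953*, whereas the median size of this difference over the genes called higher was 0.47. Over all tested genes it was 0.23. Extraction 1 was the higher in 48 of the 63 genes called higher (76.2%), so the 3 genes shared this direction with most risen genes.

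Within extraction 1, all 3 genes had a higher ratio on array 1 than on array 2, by 0.57 for *CG8997*, 0.71 for *CG7916* and 0.56 for *CG7953*. The same held in 52 of the 52 genes called higher with values on both arrays, with a median difference of 0.67. This direction was thus common to the risen genes. Values of all probes spread more widely on array 1, with an SD of 0.79, than on array 2, with 0.62. The part of this spread in the difference was not tested. Within extraction 2 the picture differed. *CG8997* and *CG7953* were higher on array 4 than on array 3, by 0.20 and 0.32, while 5 of 21 genes called higher with values on both arrays (23.8%) had this direction. The median of array 4 minus array 3 over those 21 genes was -0.51. *CG8997* and *CG7953* thus shared a direction that most of these genes did not have, a difference that was not tested and for which *CG7916* has no value.

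**Figure D3:**
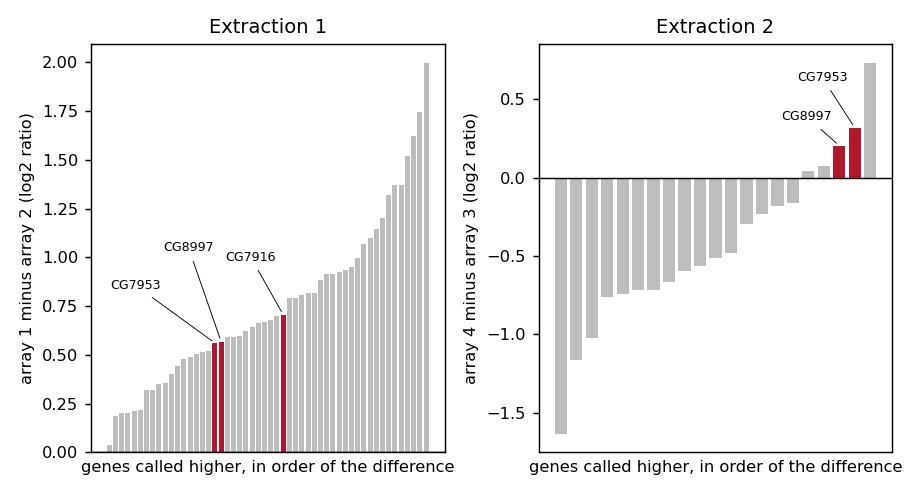
Difference in log2 ratio between the 2 arrays of an extraction for each gene called higher and measured on both, sorted by size, with *CG8997*, *CG7916* and *CG7953* in red. On the left every bar is above 0, and on the right *CG8997* and *CG7953* are 2 of the 5 bars above 0 among 21.

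The gene next to *CG7953*, *CG7968*, came close to the same rise. It had log2 ratios of 1.39 and 1.02 on arrays 1 and 2 and of 0.67 on array 3, and no value on array 4. The mean of 0.94 ± 0.18 (SE, n = 2), or 1.91-fold, was under the 2-fold threshold and had an adjusted p = 0.0527 in limma, so *CG7968* was not called. With the 4 arrays as separate values its log2 ratio was 1.02 with an adjusted p = 0.017 in limma, and it was called, while over the 9 alternatives that gave it a value its adjusted p ran between 0.0124 and 0.0817. On the other side, *CG33306* had 0.58, 0.46 and 0.34 on arrays 1, 2 and 3, with a mean of 0.43 ± 0.13 (SE, n = 2). At 1.35-fold and an adjusted p = 0.115 in limma it did not pass either. Both flanking genes had all their values above 0, and those of *CG33306* were below every value of the 3 genes on the same arrays. *CG7968* exceeded *CG7953* on array 2, whereas on arrays 1 and 3 it was lower than *CG7953*. No probe was named for *CG33307* in the annotation used, and the 2 probes of the surrounding gene *CenG1A* had no value on any array, so the host gene of the row could not be followed.

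The neighbourhood was followed over the 20 annotated genes on each side. Of these 40, 7 had a value in both extractions, while 10 had no named probe, 19 had a probe without any value and 4 had values in 1 extraction only. In limma 0 of the 7 were called in either direction, where 6.63% of all tested genes were. At an unadjusted p under 0.05 there were 3 above 0 (*CG33306*, *CG7968* and *NimB2*) and 1 below 0 (*Ance*), that is 4 of 7, whereas 568 of the 1659 tested genes (34.2%) were at such a p. Over all 7 the median log2 ratio was 0.33 and 4 were above 0, against a median of 0.01 over all tested genes. Leaving aside the flanking *CG7968* and *CG33306*, the other 5 had log2 ratios between -0.48 and 0.58 with a median of 0.00.

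Before the row, *Arpc1*, a subunit of the Arp2/3 complex that nucleates actin, lay 9 genes from *CG8997* and had log2 ratios of 0.44, 0.48 and 0.19 on arrays 1, 2 and 3. Its mean was 0.33 ± 0.14 (SE, n = 2, adjusted p = 0.196 in limma). *CAH1*, a carbonic anhydrase gene 16 places away, had -0.22, -0.08 and -0.26. The nearest measured genes on this side were thus lower than each of the 3 genes on all 3 arrays. After the row, *Ance*, for a peptidase related to angiotensin-converting enzyme, lay 4 genes from *CG7953* and was below 0 on each of its arrays, at -0.59, -0.49 and -0.24 on arrays 2, 3 and 4. Its mean was -0.48 ± 0.14 (SE, n = 2, adjusted p = 0.101 in limma). *Vajk3*, 11 places away, had a mean of 0.00 ± 0.14, and *NimB2*, a gene of the Nimrod family of the blood cells, 0.58 ± 0.21 (adjusted p = 0.141 in limma). Outside the row from *CG33306* to *CG7968*, none of the 5 measured genes among the 40 annotated neighbours had a mean as high as that of *CG7953*, but most of the 40 were not measured.

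Among the 10 nearest measured genes on each side, 0 of 20 were called higher in limma and 1 was called lower. Over all tested genes 3.8% were called higher and 2.83% lower, so nothing is read from these counts. At an unadjusted p under 0.05 in limma there were 4 above 0 and 6 below 0. Of the 1659 tested genes 34.2% were at such a p, 295 above 0 and 273 below 0. All of the 10 before *CG8997* lay between -0.36 and 0.43, and 5 of them were above 0. Of the 10 after *CG7953*, 3 were above 0. The only one with a mean within the range of the 3 genes was *l(2)34Fc*, 54 annotated genes away, with 0.81 on array 2 and 1.77 on array 3. Its mean was 1.29 ± 0.27 (SE, n = 2, adjusted p = 0.0572 in limma). Further out *CG15282* fell, with a log2 ratio of -1.72 ± 0.16 (adjusted p = 0.0218 in limma), and *CG31775* had -2.66 ± 0.56 (adjusted p = 0.0579). Both lie about 100 annotated genes from *CG7953*, so a rise and a fall occur at a distance along the same arm.

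**Figure D4:**
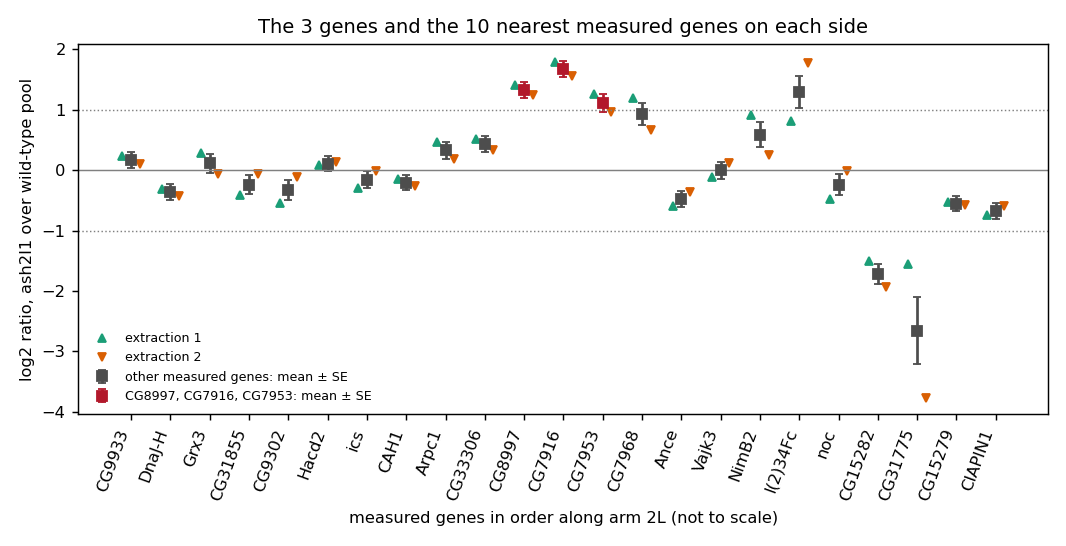
Log2 ratio of *CG8997*, *CG7916* and *CG7953* (red) and of the 10 nearest measured genes on each side (grey), in order along arm 2L and not to scale. Squares are means with the SE of limma, triangles are the 2 extractions, dotted lines are 2-fold changes, and the red squares lie between 1.11 and 1.67.

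Arm 2L held 318 tested genes, of which 14 were called higher and 11 lower, with a median log2 ratio of 0.00. The 3 genes are thus 3 of the 14 risen genes of the arm. So few genes were measured that only 42 runs of 3 adjacent annotated genes had all 3 tested, 10 of them on 2L. Among these the run of *CG8997*, *CG7916* and *CG7953* was the only one with 3 genes called higher, and no run had 3 called lower. Its mean log2 ratio of 1.37 was the highest, followed by 1.36 for *CG8087*, *CG14852* and *CG31313* on 3R, of which 2 were called. The median over the runs was 0.19. Within the run, the highest and the lowest of the 3 ratios differed by 0.56, against a median of 0.74 over the runs, and 13 of the 42 runs were tighter. The run was picked as risen, and these ranks are descriptions. The study itself reported several clusters of risen genes in *ash2* mutants, none of which held these 3 genes. It used windows of a fixed length of sequence that may hold unchanged genes, so its clusters and these runs do not compare directly.

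**Figure D5:**
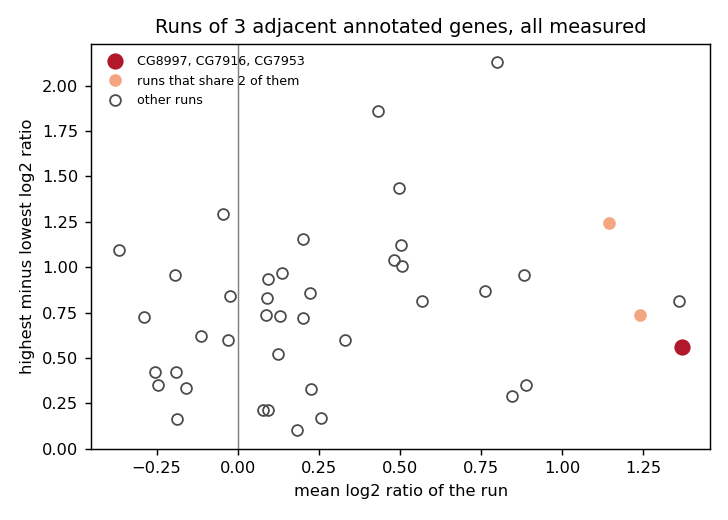
Mean log2 ratio of each run of 3 adjacent annotated genes that were all tested, against the difference between its highest and lowest gene, for 42 runs. The run of *CG8997*, *CG7916* and *CG7953* (red) has the highest mean, 1.37, beside a run on 3R at 1.36, and the orange points share 2 genes with it.

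Unbroken rows of 5 or more tested neighbours were rarer still, and only 3 were found on all chromosomes. The row from *CG33306* to *CG7968* is one of them. Every gene was above 0 in all 3 rows, so a shared sign was not limited to this place. The row here had a mean of 1.10 and 3 called genes.

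Some genes outside the row lay nearer to the mean profile of the 3 genes than *CG7916* and *CG7953* did. The mean profile of *CG8997*, *CG7916* and *CG7953* over arrays 1, 2 and 3 was compared with that of 989 other genes measured on these 3 arrays, by the root mean square difference of their log2 ratios. *Sirup*, for a protein that acts in the assembly of a mitochondrial complex, was nearest at 0.03, with values of 1.82, 1.16 and 1.20. *CG9568* followed at 0.10 and *Ag5r2*, a gene of the antigen 5 family, at 0.14. *Sirup* and *CG9568* also lie on arm 2L, and *Ag5r2* lies on the X chromosome. The members themselves differed from their own mean profile by 0.06 for *CG8997*, 0.33 for *CG7916* and 0.28 for *CG7953*, and the adjacent *CG7968*, at 0.38, stood 41st. By this measure 40 genes were nearer to the profile than the gene beside it. The 3 genes enter their own mean, which lowers their differences, so these do not compare directly with that of *CG7968*. The measure also follows the level of the ratios, on which the 3 genes were picked, and not only their pattern over the arrays. On array 4 *Ag5r2* had 0.08, where *CG8997* had 1.35 and *CG7953* 1.12, so its likeness did not extend to that array, whereas *CG30029*, the next gene at 0.16, had 1.08 there.

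Genes of several larval tissues moved in the same samples, and their part in the rise of the 3 genes was not tested. Of 22 tested genes of midgut digestion 6 were called higher, among them the amylase gene *Amy-d* and the trypsin gene *alphaTry*, and 1 was called lower, against 3.8% higher and 2.83% lower over all tested genes. The median log2 ratio of this list was 0.38, and 18 members were above 0. On array 4, which measured 14 of the 22, their median was 0.06, where *CG8997* had 1.35 and *CG7953* 1.12. On that array *Amy-d* had 2.74 and *alphaTry* 0.79, so the median does not describe each gene of the list. In the fat body list 3 of 6 were called lower (median -0.95), in the salivary gland list 2 of 6 (median -1.41), and in the cuticle list 3 of 3 (median -1.44), while the 6 tested muscle genes had a median of 0.13. In the fat body and salivary gland lists 2 of 6 genes each were above 0, and in the cuticle list 0 of 3. In the muscle list 4 of 6 were above 0 and 0 were called, where 50.9% of all tested genes were above 0. The medians of the midgut and muscle lists were thus above 0 and those of the other 3 lists below 0. Because the 3 genes were picked as risen, nothing is read from a sign they share with a list. In which larval tissue *CG8997*, *CG7916* and *CG7953* are expressed is not shown by these arrays of whole larvae.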

How the data were processed

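The deposited values are log2 ratios. To make them, the authors read spot signals in GenePix and dropped spots of low quality. Background was corrected by normexp in limma, each array was then normalised with OLIN, and arrays were brought to one median absolute deviation. For neither limma nor OLIN do the sources used here give a version. Logarithm base and direction of the ratios follow the limma convention and the dyes in the labels. Signal levels and scanner files were not used here, so no probe could be checked against background.

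Probes with 1 gene symbol were renamed through the Release 6 gene table, by gene identifier for 12533 probes. Within each array, probes for one gene were averaged, and arrays were averaged per extraction. The mean ratio was tested against 0 with limma (version 3.58.1, R 4.3.3) and Benjamini-Hochberg adjustment over 1659 genes. The fit was tried on simulated data in which the arrays of an extraction were more alike than the real ones. That trial therefore does not show how the fit performs on these data. SE is the moderated standard error. Python 3.11.15 with pandas 2.3.3 and NumPy 2.4.6 served for the rest.

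The 3 genes and the gene lists were chosen with earlier results of these data known. Genes were named by a rule: the 3 genes, measured genes among 20 annotated neighbours on each side, the 3 nearest measured genes on each side, the 3 with the most similar profile, and runs with 3 calls. *l(2)34Fc*, *CG15282*, *CG31775*, *CG30029*, *CG8087*, *CG14852*, *CG31313*, *Amy-d* and *alphaTry* were added after their values were seen. Planned comparisons of protein and promoter sequences were not made. Alternatives were separate arrays, a random block for the extraction, rescaled arrays, stricter filters, 1 probe per gene, single probes and leaving out each array.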

Additional observations from a re-analysis of the deposited data

How the results depend on the processing

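Every array value of the 3 genes was 0.80 or more, so a log2 ratio above 0 in each alternative was given in advance. Nothing is read from it. Alternatives that gave a value numbered 11 for *CG8997* and *CG7953* and 9 for *CG7916*, which was not tested with values on all 4 arrays or without array 3. Leaving out 1 array gave 1.19 to 1.47 for *CG8997*, 1.49 to 1.85 for *CG7916* and 0.97 to 1.25 for *CG7953*. All genes called higher numbered 0 to 72 and those called lower 0 to 51, with 0 when array 3 was left out. Among genes on all 4 arrays 31 were higher and 18 lower, and with every probe as its own feature 114 were higher. Of the annotated neighbours 1, *CG7968*, was called higher with separate arrays (log2 ratio 1.02), against 0 otherwise. Of the 20 nearest measured genes, taken anew from the genes each setting tested, 2 were called higher and 2 lower with separate arrays, 1 and 2 with the random block and with rescaled arrays, 1 higher with values on at least 3 arrays, and 3 lower with values on all 4 arrays. Without 1 array 0 to 2 were higher and 0 to 2 lower. Runs of 3 genes all called higher, a count whose alternatives were chosen after seeing the data, numbered 2 with separate arrays, 0 with values on all 4 arrays and 0 to 1 without 1 array. The cause of these changes was not tested, except that filters and left-out arrays reduce the genes tested. No paired analysis was possible because all 4 arrays belong to 1 group. In extraction 2 the values of *CG7916*, *CG7968* and *CG33306* rest on array 3 alone. Protein and promoter comparisons were not run.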

Other observations

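Among the 40 annotated neighbours, 4 genes had values in 1 extraction only and entered no comparison. *Sec71*, 17 places before *CG8997*, had a log2 ratio of -0.01 on array 1. After *CG7953*, *Vajk2* had -0.71 on array 3, *He*, a gene of the blood cells, 0.06 on array 1, and *Cyp28a5*, a cytochrome P450 gene, 0.44 on array 2.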
